A study of Mus musculus with 6 samples.

Results

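The core circadian clock was examined in mouse entorhinal cortex (EC), the gateway between neocortex and hippocampus, on the left and right sides through 10 named genes: the activators Arntl, Clock and Npas2, the repressors Per1, Per2, Per3 and Cry1, the nuclear receptor genes Nr1d1 and Nr1d2, and the output factor gene Dbp. They were found by their gene symbol in the authors' deposited table of all genes, which held 18746 genes, and 7 of the 10 had a row there. Clock, Nr1d1 and Dbp count as not measured and were not analysed here. The 2 groups were the left EC (n = 3) and the right EC (n = 3) of untreated wild-type C57BL/6 mice, all aged 6 months and housed under 12 hours of light and 12 hours of dark. Total RNA of each sample was hybridised to an Affymetrix Mouse Gene 2.0 ST array, 6 arrays in all, to ask which transcripts differ between the sides. The labels call the samples biological replicates, leave unsaid whether the sides were sampled from shared mice, and give no hour of the day for the dissection.

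The circadian clock is a feedback loop of transcription that runs in most cells, neurons and glia of the cortex included. ARNTL (also called BMAL1) pairs with CLOCK or its relative NPAS2, binds E-box sequences and switches on the Per and Cry genes, whose proteins return to the nucleus and block their own activators. In a second loop the nuclear receptors encoded by Nr1d1 and Nr1d2 (REV-ERB alpha and beta) repress Arntl through ROR response elements (ROREs), and DBP activates genes through D-boxes. Transcripts of the Per genes, Nr1d1, Nr1d2 and Dbp peak at another phase of the day than those of Arntl, Clock and Npas2.

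Promoter windows of the clock genes were searched for the letters of these elements, and stretches are printed for the 4 measured members that held a match, which is a description of sequence and not a site of binding. The windows come from RefSeq (build GRCm38.p6) and run from 250 bases before to 50 after an annotated start; 9 of the 10 genes, all but Per2, were matched to at least 1 window. Each stretch is written 5′ to 3′ on the strand of the gene, with the matched motif in capitals.
Arntl, RORE (chr7:113207530-113207558, plus strand): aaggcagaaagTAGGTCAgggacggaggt
Per1, E-box (chr11:69098763-69098808, plus strand): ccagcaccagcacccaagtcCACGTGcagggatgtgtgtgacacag
Per3, 2 D-boxes (chr4:151044796-151044890, minus strand): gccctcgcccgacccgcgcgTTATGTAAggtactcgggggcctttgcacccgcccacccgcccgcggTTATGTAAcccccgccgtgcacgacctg
Cry1, E′-box and E-box (chr10:85185089-85185153, minus strand): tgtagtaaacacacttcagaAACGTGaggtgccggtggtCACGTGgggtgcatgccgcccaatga

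The motifs searched, on both strands, were the E-box CACGTG, the related E′-box CACGTT (which reads AACGTG on the other strand), the D-box TTATGTAA or TTACGTAA, the RORE TAGGTCA or TGGGTCA, and the cAMP response element TGACGTCA. An E-box was in 7.15% of all 32851 promoter windows, an E′-box in 4.69%, a D-box in 1.06%, a RORE in 6.45% and a cAMP response element in 1.79%. The Arntl match began 31 bases after 1 of its 2 annotated starts. The Per1 match began 166 bases before 1 of its 2 annotated starts, the Per3 matches 205 and 158 bases before its start, and the Cry1 matches 79 and 60 bases before its start. No searched motif was in the windows of Npas2 and Nr1d2, which says only that these letters are not in these windows, and no matches overlapped each other.

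**Figure D1:**
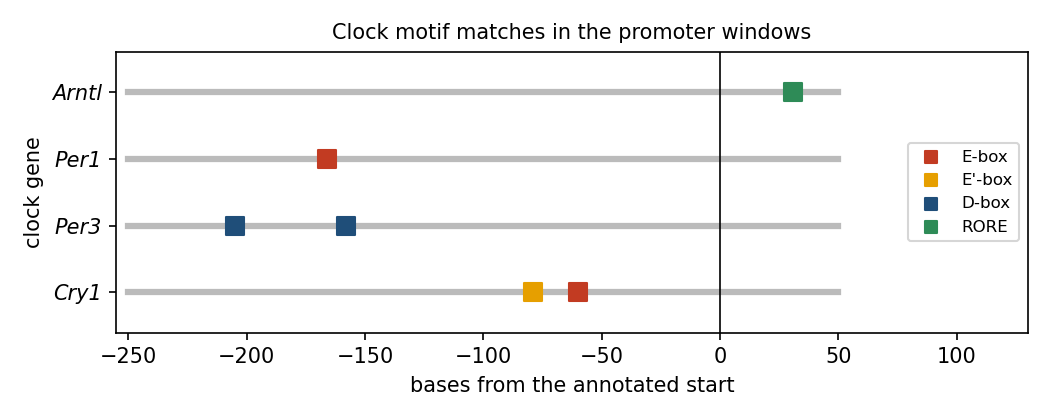
Positions of the motif matches, in bases from the annotated start (x axis), in the promoter window of each measured clock gene that held a match (y axis; for Arntl and Per1, 1 of 2 windows), with grey bars for the window from 250 bases before to 50 after the start. The Per3 window holds 2 D-boxes and the Cry1 window an E′-box beside an E-box.

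The measured clock genes had small folds between the sides, and none passed the test. All 7 measured members lay within 1.07-fold of equality in the authors' deposited table. Of them 5 were higher in left EC and 2 on the right, where 54.0% of all genes were higher in left EC. Of the 7, 0 had a deposited p under 0.05, where 1475 genes or 7.87% of all genes of the authors' deposited table did (3.77% higher in left EC and 4.1% higher in right EC). Under 0.01 there were 0 members as well, against 1.58% of all genes in the authors' deposited table. Of the members 0 passed Benjamini-Hochberg adjustment over all genes, as did 0 of the 18746 genes. The median log2 fold, left over right, was 0.02 over the 7 members and 0.01 over all genes of the authors' deposited table. In fold size, whatever the direction, the median was 1.03-fold for the members and 1.04-fold for all genes of the authors' deposited table, and 3 members lay above the median of all genes and 4 below it.

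Positive folds were taken to mean higher in left EC. This coding is likely, since left is named before right in the heading of the authors' deposited table. The largest log2 fold of that deposited table was -2.48, and the largest difference among the brighter rows of the array values, left minus right, was also -2.48. The named genes have a fold and a p-value but no value per array here, because the array rows carry numeric IDs with no gene attached. For the same reason the levels of the clock genes, their order and their spread over the arrays cannot be given, nor can the labelled tissue be checked by the level of its markers. In bulk tissue, fewer cells of a type and less RNA per cell cannot be told apart.

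To show the size of difference that the arrays could resolve, a 95% interval was computed for each member from its fold and its deposited p-value, on the assumption that the p-value is that of a two-sided t-type test. The intervals quoted use 4 degrees of freedom, those of 3 arrays against 3, and a normal distribution gave a narrower interval for each of the 7 members. The ends of the quoted intervals reached 1.17-fold higher in left EC and 1.18-fold higher in right EC. All 7 intervals held equality and lay within 1.2-fold either way. Larger differences lie outside them under that assumption and these degrees of freedom, and smaller ones are not excluded. A paired test on the same fold and p-value would have fewer degrees of freedom and wider intervals, which were not computed.

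**Figure D2:**
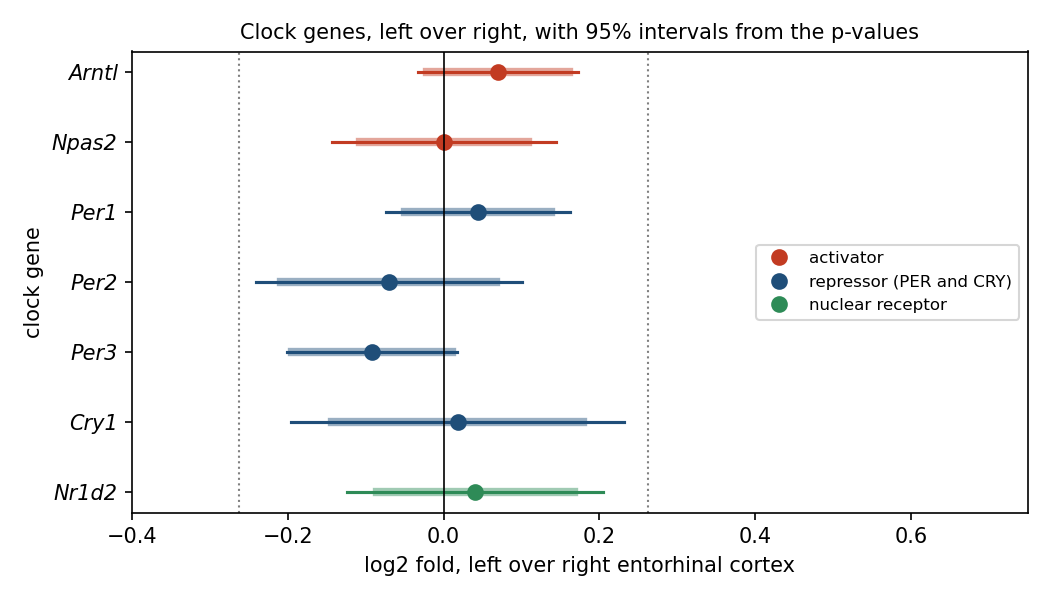
The log2 fold, left over right EC, of the 7 measured clock genes (points, coloured by role), with 95% intervals computed from the deposited p-values with 4 degrees of freedom (thin lines) or a normal distribution (thick lines). Dotted lines mark 1.2-fold either way, and each of the intervals crosses 0 and stays between them.

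Among the activators, Arntl, the partner that CLOCK and NPAS2 share, was 1.05-fold higher in left EC by the authors' deposited table (log2 fold 0.07, deposited p = 0.134, adjusted p = 0.708 by Benjamini-Hochberg over all genes). Its interval ran from 1.13-fold higher in left EC to 1.02-fold higher in right EC. With a standard error of 0.04 on the log2 scale Arntl had the narrowest interval of the members, and 38.1% of all genes had a larger fold size in the authors' deposited table. Npas2, the forebrain relative of Clock, stood at equality in the authors' deposited table, with a log2 fold of 0.0006 (deposited p = 0.991). The Npas2 interval ran from 1.11-fold higher in left EC to 1.10-fold higher in right EC. Of all genes in the authors' deposited table, 99.3% had a larger fold size than Npas2. Both activators thus had a positive sign, but that of Npas2 rests on a difference far under its standard error of 0.05.

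The repressor genes of the Period family pointed both ways. Per1, which is also induced within minutes by cAMP and glucocorticoid signals, was 1.03-fold higher in left EC by the authors' deposited table (deposited p = 0.361). The Per1 interval ran from 1.12-fold higher in left EC to 1.05-fold higher in right EC. Per2, a family member whose loss disrupts the rhythm of mice, was 1.05-fold higher in right EC by the authors' deposited table (log2 fold -0.07, deposited p = 0.315). The Per2 interval, from 1.07-fold higher in left EC to 1.18-fold higher in right EC, reached furthest to the right of the members. Arntl and Per2 had nearly the same fold size on opposite sides, and the interval of Per2 was the wider one, with a standard error of 0.06 on the log2 scale.

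Per3, the Period gene that carries the pair of D-boxes printed above, had the largest difference and the smallest p-value of the members. It was 1.07-fold higher in right EC by the authors' deposited table (log2 fold -0.09, deposited p = 0.0789, adjusted p = 0.668 by Benjamini-Hochberg over all genes). Its interval ran from 1.01-fold higher in left EC to 1.15-fold higher in right EC. Per3 was the 1 member with a deposited p under 0.1, a level that 14.4% of all genes of the authors' deposited table passed, 7.12% on the right side. A larger fold size than that of Per3 was found for 27.3% of all genes of the authors' deposited table, and a smaller p-value for 11.8%.

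Cry1, the cryptochrome that blocks ARNTL and CLOCK directly and carries the E-box printed above, was 1.01-fold higher in left EC by the authors' deposited table (deposited p = 0.825). Its standard error of 0.08 on the log2 scale was the largest of the members, and the interval ran from 1.17-fold higher in left EC to 1.15-fold higher in right EC. Its paralog Cry2, chosen after its value was seen, was also 1.01-fold higher in left EC by the authors' deposited table (deposited p = 0.687). The 4 repressors had a median log2 fold of -0.03, with 2 genes on each side.

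Nr1d2, which encodes REV-ERB beta, was 1.03-fold higher in left EC by the authors' deposited table (log2 fold 0.04, deposited p = 0.532). The Nr1d2 interval ran from 1.15-fold higher in left EC to 1.09-fold higher in right EC. It was the 1 measured member of the second loop, since Nr1d1 was not analysed here, and neither was the output factor gene Dbp.

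The measured members were also grouped by the element tied to their control in the clock loops, not by the matches printed above. They gave no common direction in the group tied to E-boxes. Per1 and Nr1d2 were higher in left EC, Per2 and Per3 on the right, and the median log2 fold of the 4 genes was -0.02 in the authors' deposited table. The other group of 3 genes, Arntl, Npas2 and Cry1, which are tied to ROREs (Cry1 in addition to its E-boxes), had positive folds with a median log2 fold of 0.02 in the authors' deposited table. In the windows searched, only Per1 of the first group held an E-box, and only Arntl of the second a RORE. Per2 of the first group had no window to search, and Per3 held 2 D-boxes. Cry1 held an E-box and an E′-box but no RORE, so its place in the second group is a choice. Of all genes 54.0% were higher in left EC by the authors' deposited table. The range over the first group, from -0.09 to 0.04, overlapped that over the second, from 0.0006 to 0.07.

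**Figure D3:**
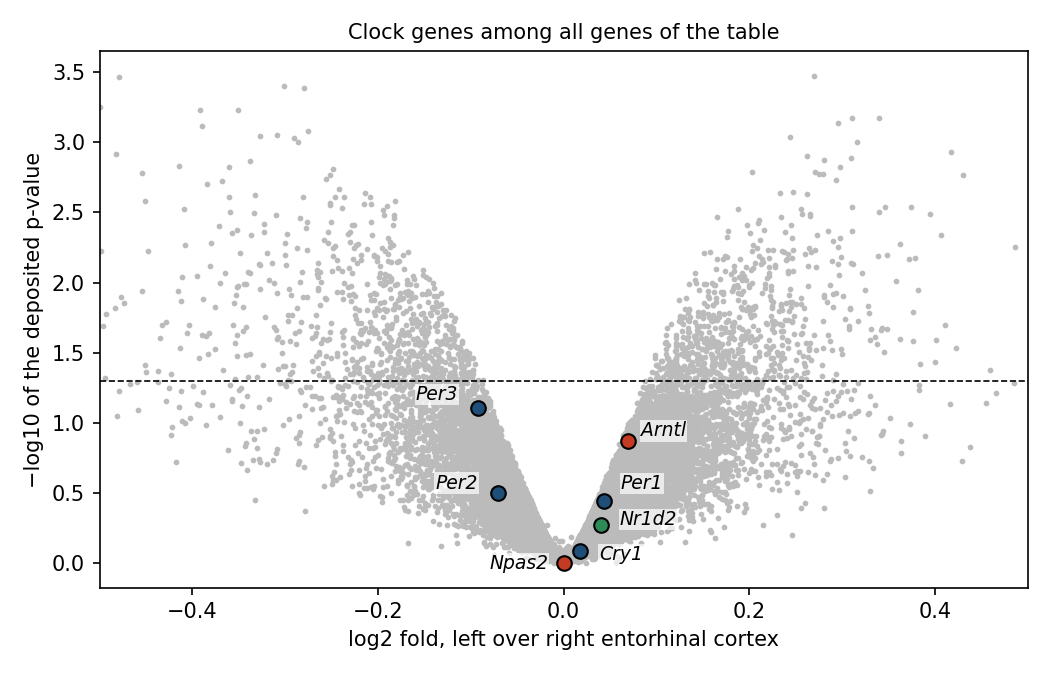
The log2 fold, left over right EC (x axis), against −log10 of the deposited p-value (y axis) for all genes (grey) and the 7 measured clock genes (coloured by role), with a dashed line at a p of 0.05; 70 genes with a log2 fold over 0.5 either way lie outside the plot. The clock genes sit below the line, with Per3 and Arntl the nearest to it.

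Genes that surround the core loops were followed in 5 further lists of regulators and targets, 55 genes when each is counted once, of which 41 were measured. These lists were chosen with earlier results of these data known, so their shares are described and not tested. Of these, 20 were higher in left EC and 21 in right EC; 4 had a deposited p under 0.05 (9.76%, against 7.87% of all genes), 2 on each side, and 0 passed adjustment over all genes of the authors' deposited table. Their median log2 fold was -0.001.

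The other loop genes had 8 of 13 measured, 4 higher on each side, and 0 with a deposited p under 0.05, against 7.87% of all genes. Timeless, named for the fly clock gene and active at mammalian replication forks, was 1.08-fold higher in left EC by the authors' deposited table (deposited p = 0.0644). Tipin, whose protein binds TIMELESS, was 1.07-fold higher in right EC by the authors' deposited table (deposited p = 0.104). Rorb, a nuclear receptor gene whose product acts through ROREs, was 1.08-fold higher in right EC by the authors' deposited table (deposited p = 0.0814). Other genes of the list, named after their values were seen, were the repressor gene Ciart (listed as Gm129, 1.04-fold higher in left EC, deposited p = 0.314) and the PAR bZIP gene Hlf, a relative of Dbp (log2 fold -0.001, deposited p = 0.985), all by the authors' deposited table.

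Kinases and ubiquitin ligases that set the stability of the clock proteins had 11 of 14 genes measured, the median log2 fold being 0.01. Of the 11, 8 were higher in left EC and 3 on the right, where 54.0% of all genes were higher in left EC. A deposited p under 0.05 was found for 0 of them, against 7.87% of all genes. Prkaa2, a catalytic subunit gene of AMP-activated kinase, was 1.09-fold higher in left EC by the authors' deposited table (deposited p = 0.13). The ligase genes Fbxw11 (1.02-fold, deposited p = 0.463) and Fbxl21 (1.04-fold, deposited p = 0.473) were higher in right EC by the authors' deposited table. Csnk1d, a casein kinase gene whose product phosphorylates PER and which was named after its value was seen, was 1.02-fold higher in left EC by the authors' deposited table (deposited p = 0.556).

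Chromatin co-regulators of the clock had 8 of 10 genes measured, the median log2 fold being -0.03. Of the 8, 1 was higher in left EC and 7 on the right, where 54.0% of all genes were higher in left EC. A deposited p under 0.05 was found for 0 of them, against 7.87% of all genes. With 8 genes, 0 called cannot be told apart from that share. Kdm1a, a histone demethylase gene, was 1.06-fold higher in left EC by the authors' deposited table (deposited p = 0.0723). Ezh2, the histone methyltransferase gene of the Polycomb complex, was 1.09-fold higher in right EC by the authors' deposited table (deposited p = 0.087). Kmt2a, another histone methyltransferase gene, listed there as Mll1, was 1.06-fold higher in right EC by the authors' deposited table (deposited p = 0.115).

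Genes with daily rhythms in many tissues had 9 of 12 measured, 7 higher in left EC and 2 on the right, the median log2 fold being 0.03. By the authors' deposited table, 2 of the 9 had a deposited p under 0.05 (22.2%, against 7.87% of all genes), both higher in left EC (3.77% of all genes), and 0 passed adjustment over all genes. That share rests on 2 genes of a list chosen with earlier results known. The heat shock gene Hspa1b was 1.17-fold higher in left EC by the authors' deposited table (deposited p = 0.0138, adjusted p = 0.6 by Benjamini-Hochberg over all genes). Wee1, a cell cycle kinase gene with E-boxes known from mouse liver, was 1.11-fold higher in left EC by the authors' deposited table (deposited p = 0.0434, adjusted p = 0.633 by Benjamini-Hochberg over all genes). Pdk4, a kinase gene of glucose oxidation, was 1.07-fold higher in right EC by the authors' deposited table (deposited p = 0.198).

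The light and cAMP path, through which the clock of the suprachiasmatic nucleus (SCN) is set, had 6 of 7 genes measured, 1 higher in left EC and 5 on the right, the median log2 fold being -0.11. By the authors' deposited table, 2 of the 6 had a deposited p under 0.05 (33.3%, against 7.87% of all genes), both higher in right EC (4.1% of all genes), and 0 passed adjustment over all genes. Here too the share rests on 2 genes of a list chosen with earlier results known. Adcyap1, which encodes the neuropeptide PACAP, was 1.22-fold higher in right EC by the authors' deposited table (deposited p = 0.0276, adjusted p = 0.61 by Benjamini-Hochberg over all genes). Crtc1, a coactivator gene of CREB, was 1.08-fold higher in right EC by the authors' deposited table (deposited p = 0.0356, adjusted p = 0.633 by Benjamini-Hochberg over all genes). Sik1, a kinase gene that restrains CRTC1, was 1.09-fold higher in right EC by the authors' deposited table (deposited p = 0.149). Per1, a target of the same path, was 1.03-fold higher on the opposite side, in left EC, by the authors' deposited table.

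**Figure D4:**
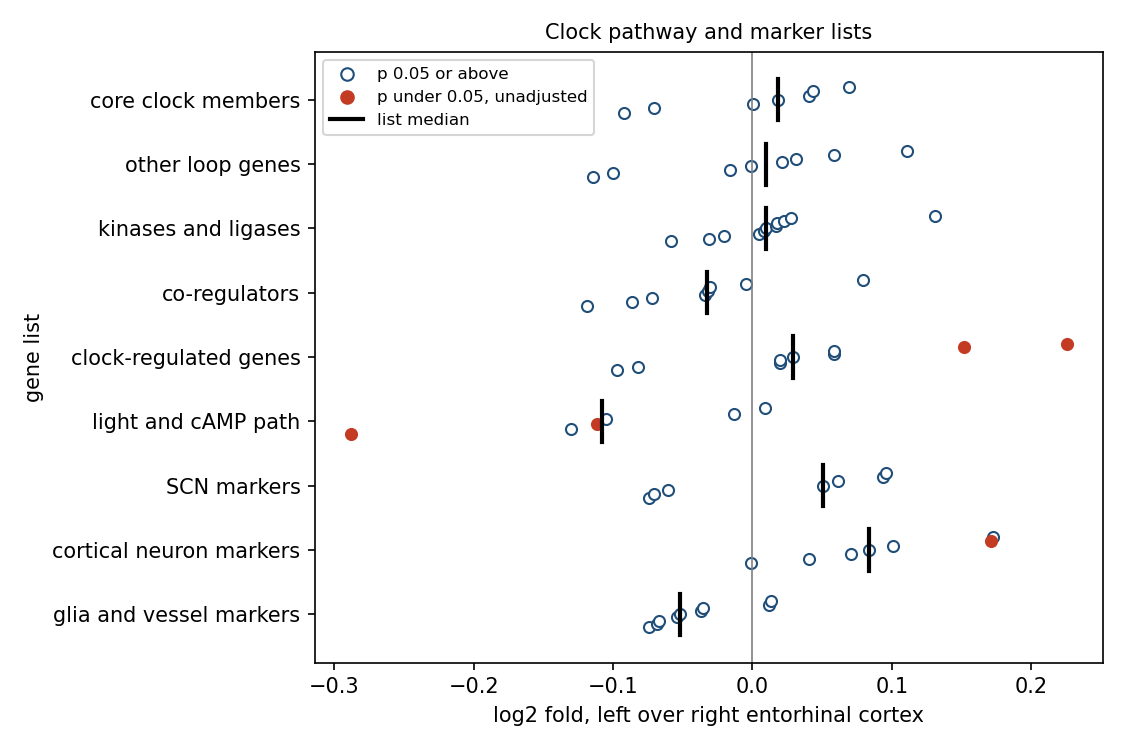
The log2 fold, left over right EC (x axis), of each measured gene in the clock lists and in marker lists of the SCN, cortical neurons, and glia and vessels (y axis), with filled points for a deposited p under 0.05 before adjustment and black bars for list medians. The core members span -0.09 to 0.07. Filled points occur in the light and cAMP list, the cortical neuron list, and the list labelled clock-regulated, which holds the genes with daily rhythms in many tissues.

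Larger folds than those of the clock genes were listed for markers of the choroid plexus, which secretes cerebrospinal fluid, on a list drawn up with these folds known. All 8 genes were higher in right EC by the authors' deposited table, with a median log2 fold of -1.12, and 6 had a deposited p under 0.05 (75%, against 7.87% of all genes, 4.1% higher in right EC), among them Sostdc1 (2.01-fold, p = 0.0213), F5 (3.23-fold, p = 0.026) and Kl (2.82-fold, p = 0.0268), while 0 passed adjustment over all genes. Of 7 measured cortical neuron genes 6 were higher in left EC and 1 had a deposited p under 0.05 (14.3%, against 7.87% of all genes), with a median log2 fold of 0.08, led by Tbr1 (1.13-fold, p = 0.0346), Reln (1.13-fold, p = 0.1) and Wfs1 (1.05-fold, p = 0.208), in the authors' deposited table. Of 9 measured glia and vessel genes 7 were higher in right EC, with a median log2 fold of -0.05 and 0 with a deposited p under 0.05. Of all genes 7.87% had such a p, and 54.0% were higher in left EC. The glia and vessel list was led by Cx3cr1 (1.05-fold, p = 0.137), Slc1a3 (1.05-fold, p = 0.207) and Aqp4 (1.05-fold, p = 0.208), in the authors' deposited table. Whether what lies behind these marker folds has a part in the clock gene values was not tested. The SCN list holds peptide and receptor genes of the master clock together with the homeobox gene Six6 and the gap junction gene Gja1. It had 7 of 11 genes measured, 4 higher in left EC and 3 in right EC. The list median was 0.05, and 0 had a deposited p under 0.05, against 7.87% of all genes. It was led by Avpr1a (1.07-fold higher in left EC, p = 0.179), Vipr2 (1.05-fold higher in right EC, p = 0.321) and Gja1 (1.04-fold higher in right EC, p = 0.334) in the authors' deposited table. Of these, Avpr1a and Gja1 were not among the cell type markers planned for the SCN.

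The unnamed rows of the array table give the scale of the spread between samples. Over 41345 rows the array medians ran from 7.24 to 7.28 on the log2 scale, and among the 20672 rows above the median signal the median within-side SD was 0.06 and the median half-width of the 95% interval of a difference was 0.14 by limma. Which of these rows belong to the clock genes is not known here. At an unadjusted limma p under 0.05 there were 3023 rows (7.31%), 1255 higher in left EC and 1768 on the right, and 0 at an adjusted p under 0.05.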

How the data were processed

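The members and gene lists were chosen with earlier results of these data known. Arrays were run by Affymetrix's standard procedures and analysed with Ingenuity iReport, per the labels' protocols and the series description; how signals were summarized and normalized, and which test gave the p-values, is not stated there. The authors deposited a table of all genes with p-values and signed folds, and log2 signals per array whose rows carry no gene name. That scale was read from the values.

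Folds were put on a log2 scale as left over right. The 20414 rows gave 18746 genes; 1111 genes with several rows were given their mean log2 fold and a p from their mean z, while each member had 1 row. Benjamini-Hochberg adjustment ran over all genes. List genes were matched by symbol, then by gene ID (Ciart as Gm129, which 2 lists hold, and Kmt2a as Mll1). Text names all members and up to 3 genes per list by smallest p. Cry2, Ciart, Hlf, Csnk1d, Csnk1e and Trps1 are named outside that rule. Intervals had been planned only if the test behind the deposited p-values could be recovered; it could not, so they rest on an assumption. Array rows were fitted with limma 3.58.1 (R 4.3.3), using lmFit and eBayes with side as the single term and two-sided p-values, and the procedure was tested on simulated data. Precision is limited by the number of arrays, 3 per side, and the p-values set a difference against the spread among these samples only. For the deposited p-values it is not known whether that spread is between mice or between the sides of a mouse. Figures were drawn with matplotlib 3.10.9.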

Additional observations from a re-analysis of the deposited data

How the results depend on the processing

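For the clock genes, 0 members had a deposited p under 0.05 or under 0.01, and 1, Per3, had one under 0.1. Adjustment over all rows or over the 17944 genes with an identifier also called 0 members, with smallest member adjusted p-values of 0.649 and 0.688. The median log2 fold of the members was 0.02, and 0.01 when centred on all genes or 0.001 as a mean; the members lie on both sides of 0 and none was called. The 7 intervals lay within 1.2-fold with 4 degrees of freedom. Those of a normal distribution must be narrower for any p above 0.05, so they are no further check. The wider intervals of a paired test were not computed, and whether they stay within 1.2-fold is not known here. Among the unnamed array rows limma called 0 at an adjusted p under 0.05 in each alternative run. The unadjusted count of 3023 came to 1808 in a fit of the brighter rows alone, those with a mean above the median (fewer rows were tested), 2104 to 3829 when 1 array was left out, and 2800 to 3249 under the other normalizations and variance models. Leaving out right replicate 2 turned the balance, to 1952 rows higher in left EC and 1877 in right EC, against 1255 and 1768 with all arrays. With the replicate number as a block the unadjusted count was 2790. The labels do not say that equal numbers share a mouse, so the numbers were not taken to pair the samples. Same-numbered samples correlated at 0.02, -0.09 and 0.05 in their deviations from the side means. Taken over all rows, dim ones included, these correlations cannot show whether the samples share a mouse. Limma could not be run for member rows, and no replicate could be left out for a named gene, because no per-array value of a named gene was used here.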

Other observations

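Csnk1e, a casein kinase gene whose product phosphorylates PER proteins, had 2 rows in the authors' deposited table that pointed to opposite sides, 1.05-fold higher in left EC (deposited p = 0.124) and 1.04-fold higher in right EC (deposited p = 0.355). Their mean log2 fold, left over right, was 0.005, so the gene's place in the kinase list depends on which row is read.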
